A study of Homo sapiens with 9 samples.

Results

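The transcripts examined were 10 genes known as targets and negative regulators of the ERK pathway, *DUSP4*, *DUSP5*, *DUSP6*, *SPRY2*, *SPRY4*, *SPRED1*, *SPRED2*, *ETV4*, *ETV5* and *PHLDA1*. The list is one of gene names, drawn up with earlier results of these data known, out of 61544 genes listed for each library, and all 10 were among the 14727 genes with enough reads to be tested. RNA came from HMC3, an immortalized human microglial cell line labelled as wild type, in 3 libraries per group. Every group was treated for 6 days. VEH cells received only the solvent DMSO. SLO cells received 10 µM SBI-0206965, 1 µM O-151 and 1 µM Lopinavir, a mixture meant to bring out features of aging. SLO ½ cells received the same compounds at 5, 0.5 and 0.5 µM. All cells were of 1 line, and the labels do not say whether replicates were separate cultures, so the p-values measure the spread between these libraries, which may be technical.

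ERK is the last kinase of the cascade that runs from growth factor receptors through RAS, RAF and MEK. Active ERK switches on genes whose proteins then shut the pathway down at several levels: dual-specificity phosphatases remove the phosphates from ERK itself, while Sprouty and SPRED proteins act near the receptor and on RAS and RAF. Because these transcripts rise when ERK is active, they are widely used to read the output of the pathway, and in microglia the same cascade lies below receptors for growth factors and CSF1. No phosphorylated protein was measured here, so the values below are RNA levels and not ERK activity.

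The sequences before the start sites are shown for the letters that ETS factors, the family to which ETV4 and ETV5 belong, contact. RefSeq promoters were matched for 6 of the 10 genes on GRCh38.p14, and the 250 bases before the start are shown for 3 genes that rose with SLO and, last, for *SPRED1*, which fell. Capitals mark GGAA, the core of an ETS site, read on either strand (GGAA or TTCC). The *DUSP6* window is chr12:89352502-89352751, on the minus strand. That of *SPRY2* is chr13:80341127-80341376, minus strand, and is the first of its 3 listed starts. That of *SPRY4* is chr5:142324248-142324497, minus strand, before a start 2208 bases inside the end of the gene as deposited. That of *SPRED1* is chr15:38252586-38252835, plus strand.
DUSP6: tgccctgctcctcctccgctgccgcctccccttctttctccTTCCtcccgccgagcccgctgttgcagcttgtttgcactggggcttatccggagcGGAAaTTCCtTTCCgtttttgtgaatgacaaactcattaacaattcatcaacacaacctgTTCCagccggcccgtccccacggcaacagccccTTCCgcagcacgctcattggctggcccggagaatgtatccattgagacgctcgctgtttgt
SPRY2: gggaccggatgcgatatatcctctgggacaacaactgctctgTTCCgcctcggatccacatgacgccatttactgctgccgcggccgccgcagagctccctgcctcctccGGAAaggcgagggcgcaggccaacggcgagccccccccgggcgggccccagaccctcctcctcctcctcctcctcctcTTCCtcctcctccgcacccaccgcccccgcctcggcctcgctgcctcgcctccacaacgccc
SPRY4: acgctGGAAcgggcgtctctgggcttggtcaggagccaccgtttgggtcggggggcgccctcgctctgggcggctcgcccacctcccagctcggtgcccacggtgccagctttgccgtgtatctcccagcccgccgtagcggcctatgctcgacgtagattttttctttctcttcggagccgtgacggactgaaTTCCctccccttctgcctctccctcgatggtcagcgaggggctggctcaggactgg
SPRED1: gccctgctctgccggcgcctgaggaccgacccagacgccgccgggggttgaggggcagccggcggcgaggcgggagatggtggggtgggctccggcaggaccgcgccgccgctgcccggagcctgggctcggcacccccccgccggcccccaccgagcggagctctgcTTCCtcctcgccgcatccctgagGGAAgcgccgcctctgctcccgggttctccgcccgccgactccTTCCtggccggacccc
GGAA occurred 6 times before *DUSP6*, 3 times before *SPRY2*, 2 times before *SPRY4* and 3 times before *SPRED1*. Thus *SPRY2*, which rose with SLO, and *SPRED1*, which fell, had the same number. The median over 35116 promoter windows of the same length was 3, and 92.7% of them held at least 1. The longer CCGGAA, which contains the core, was found before *SPRY2* and *PHLDA1* and in 14.5% of all windows. TGACG, the core of the cyclic AMP response element, was found before *SPRY2* and *SPRY4* and in 21.2% of all windows. Neither TGANTCA, the AP-1 site (6.57% of all windows), nor the CArG box bound by serum response factor (1.16%) was found in the windows of these 6 genes. All motifs were searched on both strands, and a match describes the letters only.

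Reads on genes numbered 14834295 to 19674841 per library, and the 10 genes had 67 to 2091 reads each in a library. Replicates of a group differed by more than sampling noise (chi-square per degree of freedom 1.77 to 4.01). Most defining markers of the labelled cell type were absent or near 0: of the microglia and macrophage markers, *CSF1R* had at most 15 reads and *TREM2* at most 20 in a library, *P2RY12* and *C1QA* had no read in any library, and *PTPRC* and *SPI1* had at most 2 and 1 reads. The summed TPM (the authors' values, scaled for gene length and library size) of 9 fibroblast and mural cell markers was 3180 to 3320 in VEH, 3600 to 3660 with SLO ½ and 3610 to 3780 with SLO, and 6 of the 9 were testable. Most of it came from *VIM* and *COL1A1* (means of 1728 and 1237 TPM in VEH). The fibroblast markers *COL3A1*, *DCN* and *LUM* had at most 4, 12 and 4 reads in a library. The sum hides unequal changes: *ACTA2*, smooth muscle actin, rose 7.36-fold with SLO ½ and 17.1-fold with SLO (edgeR adjusted p = 3.6e-18 and 1.15e-23), *PDGFRB* fell at both doses (log2 fold change -0.51 and -0.28, adjusted p = 2.59e-09 and 2.09e-05), and *VIM* rose with SLO ½ and fell with SLO (0.18 and -0.12, adjusted p = 0.000328 and 0.0108). The summed TPM of 9 neuron, astrocyte and oligodendrocyte markers was 4.27 to 4.73, 5.09 to 5.43 and 5.94 to 6.63. Mitochondrial transcripts took 1.3% to 1.61% of reads in VEH, 2.3% to 2.86% with SLO ½ and 2.51% to 3.12% with SLO. The part of these shifts in the results below was not tested. In bulk RNA, fewer cells that express a gene and less of its RNA per cell cannot be told apart.

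With SLO, the feedback genes split. The phosphatases *DUSP4*, *DUSP5* and *DUSP6*, both Sprouty genes and *ETV5* rose, *SPRED1*, *SPRED2* and *ETV4* fell, and *PHLDA1* was not called. A gene was called at an edgeR adjusted p below 0.05 over all tested genes, by which 6 members were higher and 3 lower in SLO than in VEH, against a background of 64.9% of all tested genes called, 32.9% higher and 32.1% lower. The median absolute log2 fold change was 0.30 over the 10 genes and 0.34 over all tested genes. Only *DUSP4* and *SPRY4* rose by more than 1.5-fold, as did 17.3% of all tested genes in SLO. The 9 called members were also those whose SLO and VEH libraries did not overlap, which held for 66.7% of all tested genes.

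With SLO ½, 5 members were higher and 3 lower than in VEH, beside 52% of tested genes called (26.7% higher, 25.3% lower). The median absolute log2 fold change was 0.27, and 0.23 over all genes. *DUSP4* and *SPRY4* were again the members over 1.5-fold higher, beside 11.5% of tested genes. Libraries did not overlap for 8 members, beside 58.3% of tested genes. Both treated groups were set against the same VEH libraries. Between the doses, 1 member was higher in SLO than in SLO ½ and 2 were lower, beside 41.1% of tested genes called (20.8% higher, 20.3% lower), and the libraries of 4 members did not overlap, beside 51%. The median absolute log2 difference between the doses was 0.06 for the members and 0.19 for all tested genes.

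**Figure D1:**
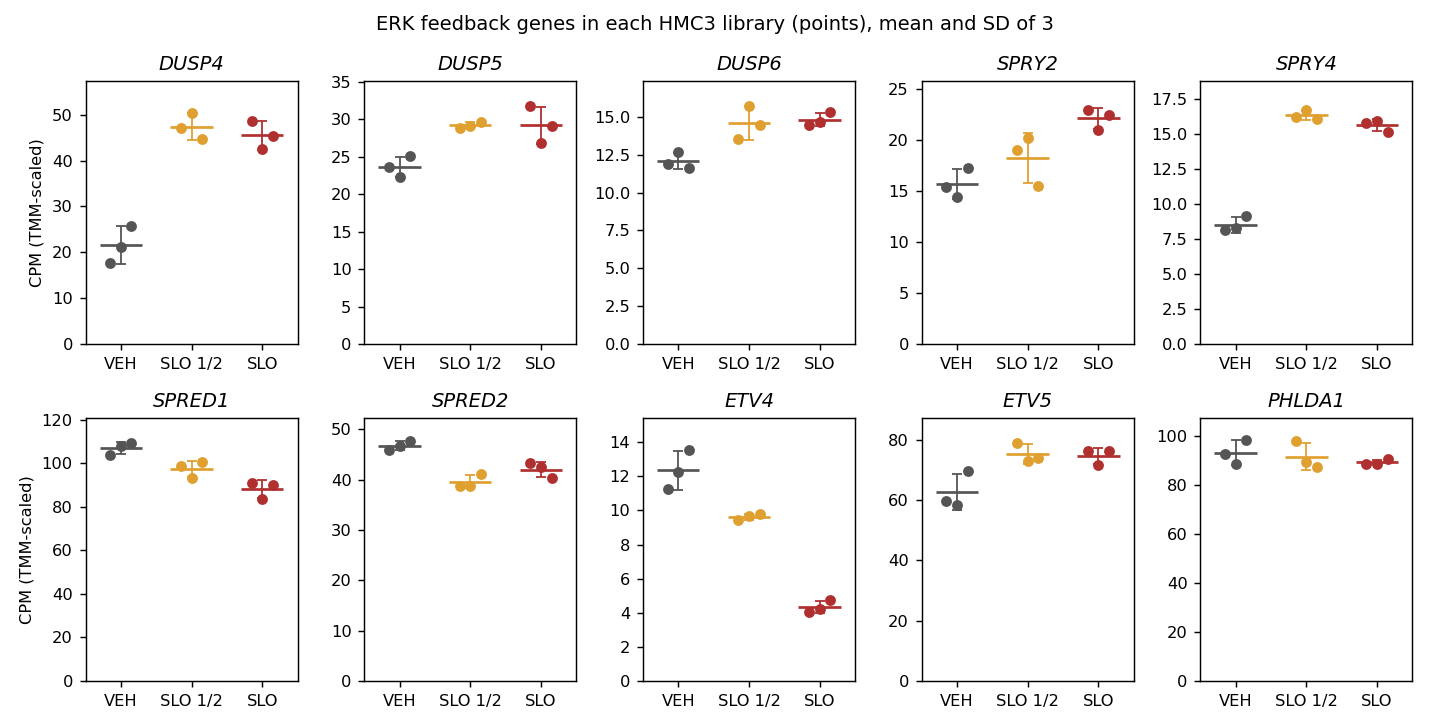
Level of each ERK feedback gene in CPM (read counts scaled for library size and, by TMM, for composition; axes start at 0) in the 9 HMC3 libraries; points are libraries, lines the mean and bars the SD of 3. *DUSP4* and *SPRY4* lie higher in both treated groups than in VEH, while *ETV4* drops from 11.24 to 13.53 CPM in VEH to 4.056 to 4.721 in SLO.

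Among the phosphatases, *DUSP4*, which acts on ERK and other MAP kinases in the nucleus, changed most. Its gene (ENSG00000120875.9) lies on the minus strand at chr8:29333064-29350684 on GRCh38. Levels were 17.59, 21.21 and 25.85 CPM in VEH, 47.01, 50.43 and 44.63 with SLO ½ and 48.61, 42.5 and 45.28 with SLO. VEH libraries were spread more widely than the treated ones, yet the highest of them stayed far below the lowest treated library. The log2 fold change was 1.06 ± 0.0855 (SE, n = 3 per group, edgeR adjusted p = 6.88e-12) with SLO and 1.12 ± 0.0845 (adjusted p = 5.6e-12) with SLO ½. In SLO, 8.85% of tested genes had a larger log2 fold change, and in SLO ½ 5.41%. SLO and SLO ½ libraries overlapped, and the difference between the doses was -0.06 (95% interval -0.22 to 0.10, edgeR adjusted p = 0.565). A further change in *DUSP4* at the full dose was not detectable within that interval.

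*DUSP5*, a nuclear phosphatase specific for ERK (chr10:110497907-110511533, plus strand), rose less. It was at 23.56, 22.32 and 25.02 CPM in VEH, 28.84, 29.11 and 29.59 with SLO ½ and 31.72, 26.78 and 29.06 with SLO. All treated libraries lay above all VEH libraries, and the SLO libraries enclosed those of SLO ½. The log2 fold change was 0.30 at either dose (SE 0.0702 and edgeR adjusted p = 0.000468 with SLO; SE 0.0696 and adjusted p = 0.000624 with SLO ½), and the interval of the difference between doses ran from -0.14 to 0.14. Its processed copies *DUSP5P1* and *DUSP5P2* had at most 14 reads and 1 read in a library.

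*DUSP6*, the cytoplasmic ERK phosphatase that is the most used reporter of the pathway (chr12:89347235-89352501, minus strand), was of similar response. Levels were 11.87, 12.67 and 11.65 CPM in VEH, 13.51, 15.73 and 14.44 with SLO ½ and 14.47, 14.66 and 15.29 with SLO. Neither treated group overlapped VEH. The log2 fold change was 0.30 ± 0.0882 with SLO (SE, edgeR adjusted p = 0.00427) and 0.27 ± 0.0875 with SLO ½ (adjusted p = 0.00985), and the call with SLO ½ was lost without its replicate 2 (0.21, adjusted p = 0.0748). The doses differed by 0.02 (95% interval -0.15 to 0.20). The genes whose centred log2 CPM over the 9 libraries lay closest to that of *DUSP6*, by Euclidean distance among 10932 candidates with a median distance of 0.681, were *HMGN3* at 0.115, *ATG4B* at 0.14 and *NKIRAS2* at 0.141. Of the other members, *DUSP5* was at 0.321 and *ETV5* at 0.367, whereas *DUSP4* was at 1.28 and *ETV4* at 2.23. Of the candidates, 689 lay closer to *DUSP6* than *DUSP5* did, 1182 than *ETV5*, 9930 than *DUSP4* and 10779 than *ETV4*.

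Sprouty proteins bind adaptors such as GRB2 and CBL below the receptor. *SPRY4* (chr5:142310427-142326455, minus strand) was the lowest member in VEH, at 8.127, 8.272 and 9.14 CPM, and stood at 16.24, 16.7 and 16.11 with SLO ½ and 15.8, 15.95 and 15.16 with SLO. Replicates were tight, and the treated groups lay far above VEH. It rose by a log2 fold change of 0.87 ± 0.0902 with SLO (SE, 1.83-fold, edgeR adjusted p = 1.34e-09) and 0.94 ± 0.0887 with SLO ½ (1.91-fold, adjusted p = 6.26e-10). All SLO libraries lay slightly below all SLO ½ libraries, but the fitted difference of -0.06 (95% interval -0.23 to 0.10) was not called (edgeR adjusted p = 0.562).

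*SPRY2* (chr13:80335976-80341126, minus strand) behaved differently from *SPRY4*. It was at 15.37, 14.38 and 17.24 CPM in VEH, 18.96, 20.19 and 15.45 with SLO ½ and 22.94, 20.95 and 22.41 with SLO. SLO libraries were above all others, while SLO ½ replicate 3 fell within the VEH range. The log2 fold change was 0.49 ± 0.0897 with SLO (SE, edgeR adjusted p = 2.37e-05) and 0.21 ± 0.0915 with SLO ½ (adjusted p = 0.0534, not called). The direct comparison of the doses gave 0.28 ± 0.0871 in favour of SLO (adjusted p = 0.0114), which made *SPRY2* the 1 member called higher at the full dose. Both statements turn on that one library: without SLO ½ replicate 3, *SPRY2* was called with SLO ½ (0.31, adjusted p = 0.00625) and the difference between doses was lost (0.17, adjusted p = 0.13). The SLO ½ call was also gained with library size as the only scaling (0.26, adjusted p = 0.0186), with at least 10 counts asked of every library (0.23, adjusted p = 0.0376) and without VEH replicate 3 (0.29, adjusted p = 0.0182), and the dose call was lost with unfiltered TPM (0.31, adjusted p = 0.0751).

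The SPRED genes, whose proteins hold neurofibromin at the membrane and so restrain RAS, went the other way. *SPRED1* (chr15:38252836-38357249, plus strand) had 104, 108.2 and 109.2 CPM in VEH, 98.73, 93.09 and 100.4 with SLO ½ and 90.86, 83.46 and 90.16 with SLO. The 3 groups formed steps without overlap. Its log2 fold change was -0.28 ± 0.0459 with SLO (SE, edgeR adjusted p = 4.08e-06), -0.14 ± 0.0452 with SLO ½ (adjusted p = 0.0116) and -0.14 ± 0.0461 between SLO and SLO ½ (adjusted p = 0.0128). The calls other than SLO against VEH depended on the setting. With SLO ½ the call was lost with library size as the only scaling (-0.09, adjusted p = 0.0937) and without SLO ½ replicate 2 (-0.11, adjusted p = 0.0842), and between doses it was lost with all 3 limma fits of TPM (adjusted p = 0.122, 0.124 and 0.243) and without SLO ½ replicate 3 (0.076) or SLO replicate 2 (0.0986).

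*SPRED2* (chr2:65310851-65432637, minus strand) was at 45.84, 46.68 and 47.68 CPM in VEH, 38.78, 38.83 and 41.03 with SLO ½ and 43.22, 42.5 and 40.29 with SLO. Treated libraries were all below VEH, and those of the 2 doses overlapped. Unlike *SPRED1*, it was nominally lower at the lower dose: -0.24 ± 0.0539 with SLO ½ (SE, edgeR adjusted p = 0.000392) and -0.15 ± 0.0539 with SLO (adjusted p = 0.014). The difference between doses was 0.09 (95% interval -0.02 to 0.20, adjusted p = 0.207). The SLO call was lost with library size as the only scaling (-0.08, adjusted p = 0.205) and without SLO replicate 3 (-0.13, adjusted p = 0.0704).

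**Figure D2:**
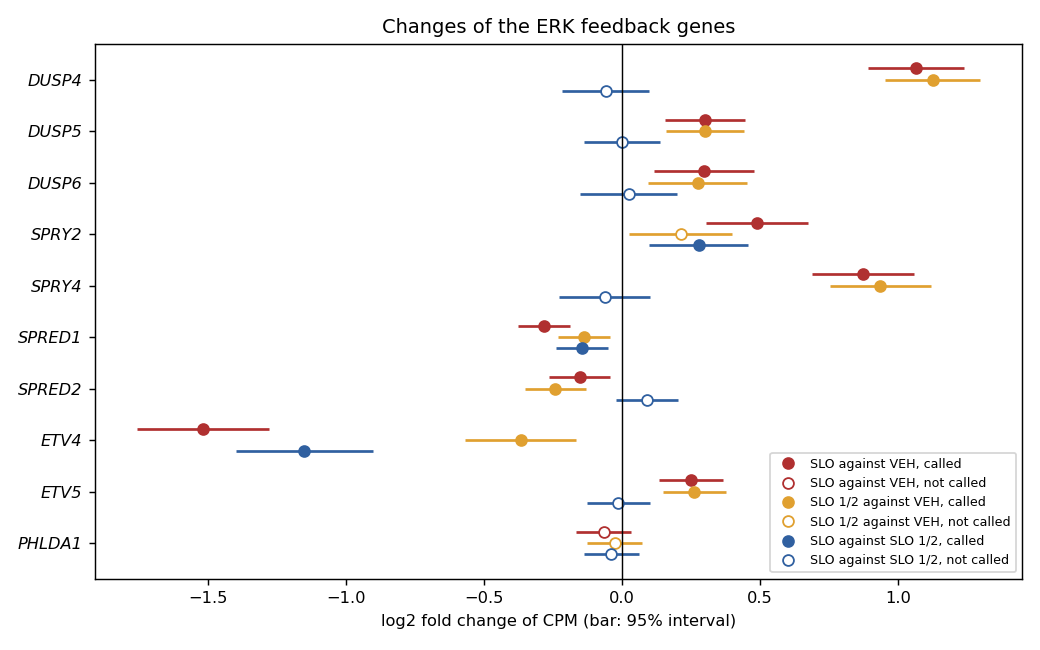
Log2 fold change of CPM for the 10 ERK feedback genes in 3 comparisons (horizontal axis; bars are 95% intervals, filled points passed an edgeR adjusted p of 0.05). For *ETV4* the point for SLO lies at -1.52 and that for SLO ½ at -0.37, whereas the points of *DUSP4* for the same comparisons lie at 1.06 and 1.12.

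*ETV4* and *ETV5*, related ETS transcription factors of the PEA3 group that ERK signalling induces, moved in opposite directions. *ETV4* (ENSG00000175832.13, chr17:43527844-43579620, minus strand) had 11.24, 12.28 and 13.53 CPM in VEH, 9.425, 9.664 and 9.764 with SLO ½ and 4.056, 4.238 and 4.721 with SLO. The groups formed 3 separate steps, and the larger step was between the doses. It fell by 1.52 on the log2 scale with SLO (SE 0.116, edgeR adjusted p = 2.32e-12) and by 0.37 with SLO ½ (SE 0.0982, adjusted p = 0.00247), and by 1.15 from SLO ½ to SLO (SE 0.121, adjusted p = 8.21e-09). Only 0.564% of tested genes had a lower log2 fold change with SLO. Its read counts were 67 to 72 in SLO. The gene lies within *DHX8*, which is on the opposite strand and had up to 1906 reads in a library, and the deposited counts are by strand. *ETV1*, the third PEA3 gene, was named after its values were seen: its log2 fold change was -1.02 ± 0.141 with SLO (SE, edgeR adjusted p = 2.97e-07) and -0.82 ± 0.135 with SLO ½ (adjusted p = 8.2e-06).

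*ETV5* (chr3:186046314-186110318, minus strand) was at 59.88, 58.56 and 69.57 CPM in VEH, 79.14, 73.14 and 73.92 with SLO ½ and 76.28, 71.57 and 76.33 with SLO. VEH replicate 3 came close to the treated libraries without reaching them. The log2 fold change was 0.25 ± 0.0564 with SLO (SE, edgeR adjusted p = 0.000339) and 0.26 ± 0.056 with SLO ½ (adjusted p = 0.000256), the latter lost with unfiltered TPM (0.22, adjusted p = 0.0587). The doses differed by -0.01 (95% interval -0.13 to 0.10).

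*PHLDA1*, a pleckstrin homology domain protein induced by ERK signalling (chr12:76025447-76031776, minus strand), was at 92.51, 88.5 and 98.35 CPM in VEH, 97.94, 89.2 and 87.33 with SLO ½ and 88.5, 88.29 and 90.43 with SLO. The groups overlapped in every comparison. The log2 fold change was -0.07 (95% interval -0.17 to 0.03, edgeR adjusted p = 0.237) with SLO and -0.03 (-0.13 to 0.07, adjusted p = 0.667) with SLO ½. These intervals leave out changes of the size seen for *DUSP5* or *SPRED1* with SLO.

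Levels of different genes were compared in TPM, the authors' values per gene length. In VEH the order from the top was *PHLDA1* (74.09 ± 4.05, SD, n = 3), *SPRED1* (65.04 ± 2.08), *ETV5* (51.08 ± 5.06), *DUSP5* (43.86 ± 2.55), *SPRED2* (39.94 ± 1.01) and *SPRY2* (22.93 ± 2.17), none of which overlapped its neighbour. Next came *ETV4* (16.53 ± 1.62), *DUSP6* (14.71 ± 0.689) and *DUSP4* (13.95 ± 2.75), which overlapped, and last *SPRY4* (6.111 ± 0.419). In SLO, *PHLDA1* remained first (70.51 ± 0.916) and *ETV4* became last (5.777 ± 0.454), below *SPRY4* (11.17 ± 0.302) without overlap. *DUSP4* moved from below *DUSP6* in the mean to 29.26 ± 2 against 17.96 ± 0.514. *ETV5* and *DUSP5*, *DUSP5* and *SPRED1*, and *SPRY2* and *DUSP4* overlapped as neighbours in SLO.

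**Figure D3:**
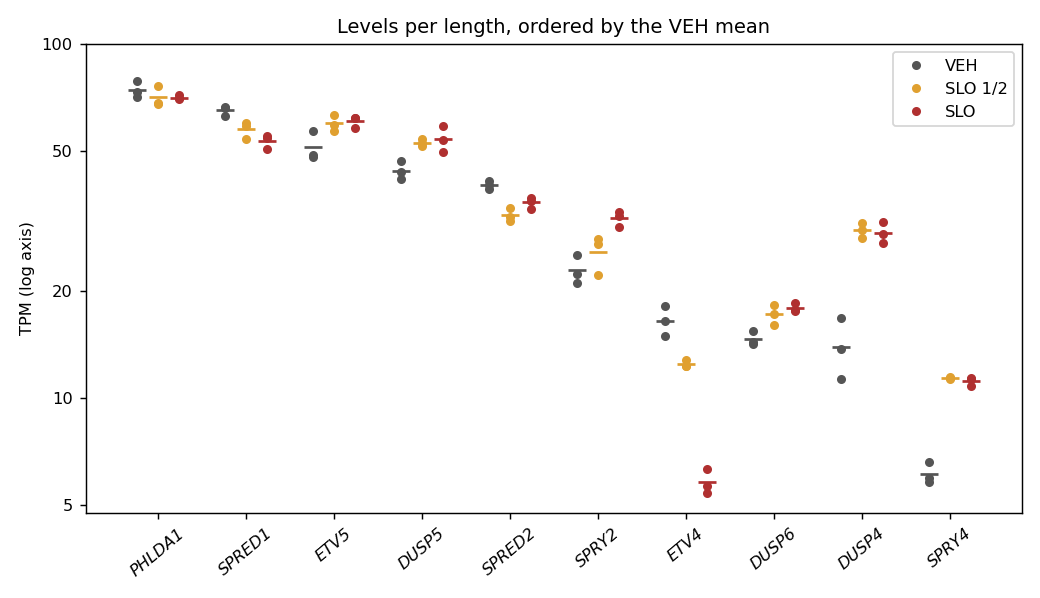
TPM (log axis) of the 10 ERK feedback genes, ordered by the VEH mean; points are libraries and lines the means of 3. *ETV4* goes from 16.53 TPM in VEH to 5.777 in SLO, the lowest of all genes in that group, and *SPRY4* from 6.111 to 11.17.

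Ratios of related genes within a library do not depend on its scaling, and 4 of them were taken after the values above were seen. *ETV5* TPM was 3.244, 2.904 and 3.131 times that of *ETV4* in VEH, 5.113, 4.608 and 4.609 times with SLO ½ and 11.45, 10.28 and 9.844 times with SLO. The balance of the pair thus moved in steps with dose, without overlap. *DUSP4* to *DUSP6* was 0.951 ± 0.204 (SD, n = 3) in VEH, 1.73 ± 0.105 with SLO ½ and 1.63 ± 0.132 with SLO, so that both doses stood above VEH and overlapped each other. *SPRY4* to *SPRY2* was highest at the lower dose: 0.267 ± 0.013 in VEH, 0.445 ± 0.0574 with SLO ½ and 0.347 ± 0.0224 with SLO. *SPRED1* to *SPRED2* was 1.63 ± 0.0174, 1.75 ± 0.054 and 1.49 ± 0.097. Over 12 comparisons of log2 ratios, an exact two-sided permutation test gave p = 0.1, the smallest that 3 libraries against 3 allow, in 11 of them (Benjamini-Hochberg adjusted p = 0.109) and p = 0.4 for *DUSP4* to *DUSP6* between doses. This test cannot pass 0.05 with 3 libraries against 3.

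**Figure D4:**
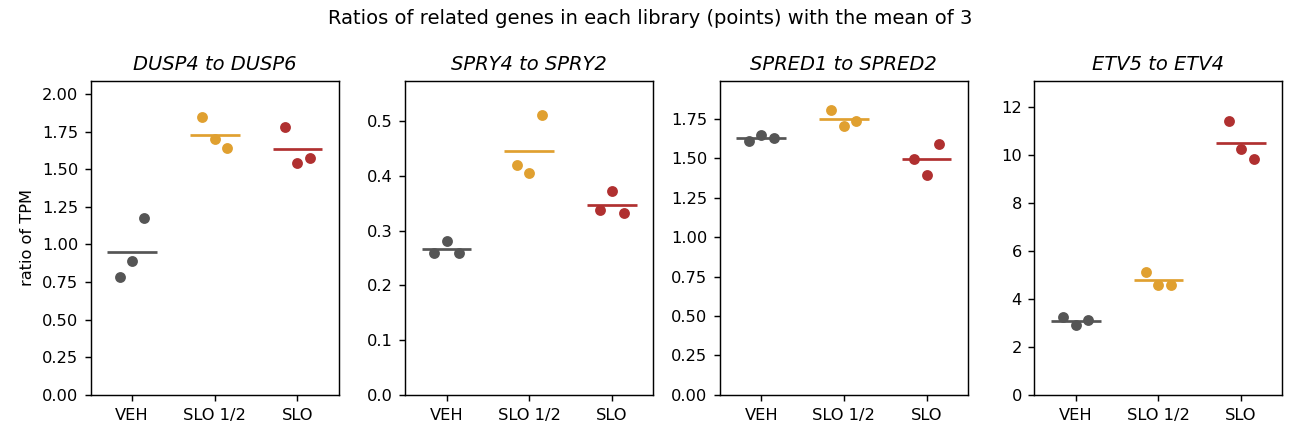
Ratio of TPM (vertical axes from 0) between related ERK feedback genes in each library; points are libraries and lines the means of 3. *ETV5* to *ETV4* goes from 2.904 to 3.244 in VEH to 9.844 to 11.45 in SLO.

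The relatives of the members outside the list were 13 genes, 11 of them testable. In SLO, 7 rose and 2 fell, with a median log2 fold change of 0.58 beside 0.01 over all genes, and in SLO ½ 4 rose and 2 fell (median 0.12). *DUSP1*, an immediate-early nuclear phosphatase with a preference for p38 and JNK, was at 133 to 135.7 CPM in VEH, 137.6 to 155.7 with SLO ½ and 207.5 to 221.8 with SLO. It rose by a log2 fold change of 0.68 ± 0.0442 with SLO (SE, edgeR adjusted p = 7.34e-14) and by 0.53 ± 0.0438 from SLO ½ to SLO (adjusted p = 8.3e-11). *DUSP1* was picked as the relative with the smallest p between doses, where *DUSP4*, *DUSP5* and *DUSP6*, not picked so, were not called. *DUSP10*, which also acts on p38 and JNK, went from 4.439 to 4.989 CPM in VEH to 13.43 to 14.53 in SLO (log2 fold change 1.59 ± 0.106, adjusted p = 1.12e-13). *PHLDA3*, a p53 target that restrains AKT, went from 8.879 to 9.969 CPM to 24.27 to 25.9 (1.43 ± 0.0808, adjusted p = 3.09e-15). *DUSP9* and *DUSP7* were named after their values were seen. *DUSP9* fell from 27 to 43 reads per library in VEH to 4 to 8 in SLO (log2 fold change -2.56 ± 0.324, edgeR adjusted p = 6.41e-08). *DUSP7* was not called with SLO or SLO ½ (adjusted p = 0.761 and 0.221).

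The core of the cascade, 23 genes from SHC1 and GRB2 to ERK and its RSK kinases, showed changes in both directions: 8 rose and 10 fell with SLO (median log2 fold change -0.04), and 3 rose and 8 fell with SLO ½ (median -0.03). *MRAS*, a RAS relative that opens RAF through SHOC2, rose from 7.939 to 9.979 CPM in VEH to 13.68 to 15.15 with SLO ½ and 35.32 to 36.44 with SLO. Its log2 fold change was 1.99 ± 0.0816 with SLO (SE, edgeR adjusted p = 2e-18), and SLO exceeded SLO ½ by 1.34 ± 0.0747 (adjusted p = 2.85e-14). The scaffold *KSR1* rose by 1.24 ± 0.0887 with SLO (adjusted p = 5.53e-13). *MAPK3*, which encodes ERK1, fell from 32.69 to 40.38 CPM in VEH to 16.76 to 17.43 in SLO (log2 fold change -1.03 ± 0.0792, edgeR adjusted p = 2.47e-12).

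Of 13 other brakes on the pathway, 8 fell and 3 rose with SLO (median log2 fold change -0.41), and 8 fell and 2 rose with SLO ½ (median -0.17). The RAS GTPase-activating genes *RASA2* and *RASA1* fell by 0.69 and 0.47 on the log2 scale with SLO (edgeR adjusted p = 2.05e-11 and 4.03e-10). *ERRFI1*, an inhibitor of the EGF receptor, rose by 0.60 ± 0.0508 (SE, adjusted p = 2.02e-11). *RASAL2* rose with SLO (0.17, adjusted p = 0.00357) and fell with SLO ½ (-0.14, adjusted p = 0.0185): it was at 82.52 to 90.86 CPM in VEH, 76.07 to 78.86 with SLO ½ and 89.77 to 100.4 with SLO, and the doses differed by 0.31 ± 0.0489 (adjusted p = 8.38e-06).

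Other transcripts that ERK signalling induces numbered 14, of which 12 were testable. With SLO 3 rose and 7 fell (median log2 fold change -0.67), and with SLO ½ 4 rose and 5 fell (median 0.05). Between the doses 3 were higher in SLO, 3 lower and 6 not called, beside 41.1% of all tested genes called (20.8% higher, 20.3% lower). The 5 genes lower with SLO ½, *FOS*, *FOSB*, *EGR1*, *IER2* and *MYC*, named after their values were seen, were also lower with SLO. Both doses were set against the same VEH libraries, and the share of such genes over all tested genes was not taken. Of these 5, *FOS*, *EGR1* and *FOSB* fell most. *EGR1* went from 111.9 to 153.7 CPM in VEH to 21.68 to 43.89 with SLO ½ and 45.28 to 49.97 with SLO, log2 fold changes of -2.10 ± 0.124 (SE, edgeR adjusted p = 2.74e-14) and -1.47 ± 0.118 (adjusted p = 6.51e-12). *FOS* went from 18.7 to 27.18 CPM to 1.887 to 8.573 and 4.238 to 5.993, falling by 2.42 and 2.18 on the log2 scale (edgeR adjusted p = 6.05e-10 and 1.26e-09). *FOSB* fell by 1.61 and 1.92, *IER2* by 0.55 and 0.61 and *MYC* by 0.63 and 0.73. In the same list, *IER3* rose with SLO ½ and SLO (0.22 and 0.39, edgeR adjusted p = 0.000149 and 1.13e-08). *EPHA2* also rose with SLO ½ and SLO (0.35 and 0.28, edgeR adjusted p = 5.57e-07 and 1.1e-05). *CCND1* was called higher with SLO ½ (0.33, adjusted p = 3.22e-05) but not with SLO (adjusted p = 0.453). It was lower in SLO than in SLO ½ (-0.28, adjusted p = 0.000394). *JUNB* was not called at either dose (adjusted p = 0.137 and 0.409). *FOSL1*, the AP-1 subunit FRA1, was at 98.93 to 113.9 CPM in VEH, 110.8 to 115.5 with SLO ½ and 51.07 to 63.75 with SLO. It fell by 0.92 on the log2 scale with SLO (SE 0.0597, edgeR adjusted p = 6.78e-14), was not called with SLO ½ (0.07, adjusted p = 0.274), and fell by 0.99 from SLO ½ to SLO (adjusted p = 1.09e-13). *PLAUR*, the urokinase receptor, was likewise called lower at the full dose and not at the lower one, at 40 to 46.48, 43 to 44.51 and 21.07 to 21.88 CPM (log2 difference -1.03 ± 0.0644 from SLO ½ to SLO, edgeR adjusted p = 2.53e-13; SLO ½ against VEH not called, adjusted p = 0.664). *EPHA4*, an ephrin receptor, rose from 3.808 to 4.508 CPM to 13.11 to 13.6 and 21.31 to 24.27 (2.51 ± 0.102 with SLO, adjusted p = 1.82e-18). Of the members, *ETV4* and *SPRED1* were also called lower at the full dose than at the lower dose, *SPRED1* with the limits given above. The log2 differences were -1.15 and -0.14 (edgeR adjusted p = 8.21e-09 and 0.0128). None of the members that rose with SLO was called lower between the doses. The same held for those of the other ERK-induced transcripts that rose with SLO. Both sets were picked by their rise in the same SLO libraries, which makes a lower call between the doses less likely. *FOSL1* and *PLAUR* were likewise picked by their p with SLO. No conclusion is drawn from this, and the share over all genes that rose with SLO was not taken.

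Upstream, 9 of 12 ligands of the EGF and FGF families were testable, and 6 rose and 2 fell with SLO (median log2 fold change 0.86), 6 and 1 with SLO ½ (median 0.55). *TGFA*, a ligand of the EGF receptor, rose from 6.984 to 8.075 CPM in VEH to 17.9 to 18.79 with SLO ½ and 22.48 to 24.94 with SLO (log2 fold change 1.63 ± 0.088 with SLO, edgeR adjusted p = 1.07e-15). *HBEGF*, a further ligand of that receptor, rose by 0.94 ± 0.0558 (adjusted p = 9.17e-15). *NRG1*, a ligand of ERBB3 and ERBB4, was at 60.76 to 70.18, 61.7 to 62.68 and 30.61 to 33.42 CPM and fell by 1.05 on the log2 scale with SLO (SE 0.0579, adjusted p = 1.64e-15). Of 12 receptors, 11 were testable, with 3 higher and 6 lower in SLO (median log2 fold change -0.28) and 2 higher and 7 lower in SLO ½ (median -0.30). *AXL*, the most abundant of the 12 receptors in VEH, fell from 1051 to 1076 CPM in VEH to 554.7 to 584.7 in SLO (-0.90 ± 0.0394, edgeR adjusted p = 9.16e-18). *ERBB3* fell by 1.24 on the log2 scale (SE 0.0742, adjusted p = 1.16e-14). *FGFR3* rose by 1.64 ± 0.0795 (adjusted p = 8.45e-17) and differed between the doses by 0.84 ± 0.0718 (adjusted p = 1.78e-10). These lists are described by their counts, beside the 64.9% and 52% of all tested genes called with SLO and SLO ½, and nothing particular to them was tested.

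**Figure D5:**
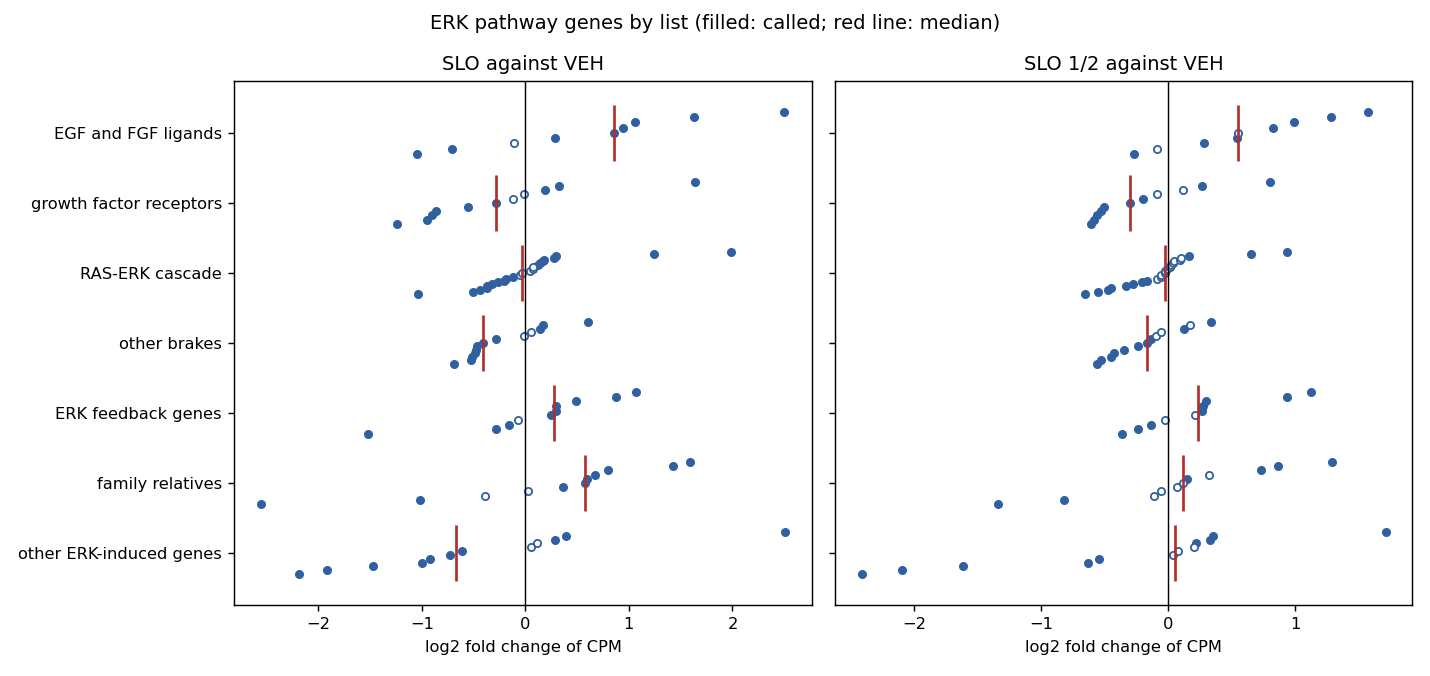
Log2 fold change of CPM for the tested genes of 7 ERK pathway lists with SLO (left) and SLO ½ (right); each point is a gene, filled where called by edgeR, and red lines are medians. The other ERK-induced genes have a median of -0.67 with SLO and 0.05 with SLO ½, and the feedback genes 0.27 and 0.24.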

How the data were processed

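Polyadenylated RNA of 9 HMC3 libraries was sequenced. Per the labels and methods, the authors used Trimmomatic 0.38 for trimming and STAR 2.7.1a for alignment to GRCh38, and deposited whole-number read counts per gene by strand, without normalization; 18% to 20.1% of reads fell on no gene and were left out. The authors also deposited TPM; the annotation release and gene lengths are not given in the sources used here. Coordinates are the deposited ones, and strands came from GENCODE v44.

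The tests were made in edgeR 4.0.16 under R 4.3.3 (filterByExpr, TMM factors 0.9678 to 1.035, quasi-likelihood fit of 3 groups to all 9 libraries), with Benjamini-Hochberg adjustment over 14727 genes. The standard error is the log2 fold change divided by the square root of F. The test was checked on simulated data, in which only a small set of genes with many reads was changed. That check does not cover changes as widespread as those seen here. Alternatives used DESeq2 1.42.0, limma 3.58.1 on TPM, other scalings and filters, the replicate number and each library left out. Groups came from the sample titles. The members and lists were chosen with earlier results of these data known. Besides members, the named genes are the 3 per list of lowest p with SLO, the 1 of lowest p between doses, and the 3 nearest to *DUSP6*. Outside this rule are *ETV1*, *DUSP7*, *DUSP9*, *FOS*, *FOSB*, *EGR1*, *IER2*, *IER3*, *JUNB*, *MYC*, *CCND1*, *EPHA2* and the marker genes. Replicate numbers were not used to pair samples. The summed level of the microglia markers is not reported here.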

Additional observations from a re-analysis of the deposited data

How the results depend on the processing

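Of 570 values of single members over 19 alternatives, 531 kept their direction and side of the threshold, 13 lost the call, 4 gained it and 22 changed sign; the sign changes concern differences that were not called. Among the lists, 1 relative in place of 2 was lower with SLO when every library needed at least 10 counts. That filter dropped *DUSP9*, which had 4 to 8 reads in SLO. With limma on unfiltered log2(TPM + 1), 5 core genes in place of 8 were higher with SLO. The counts of members called with SLO and with SLO ½ stayed within 1.5 times. Between the doses the higher count was 0 with limma on unfiltered log2(TPM + 1), and the lower count was 1 with limma on log2(TPM + 1), log2(TPM + 0.1) and unfiltered log2(TPM + 1). Leaving out 1 library gave 0 to 1 higher (0 without SLO ½ replicate 3) and 1 to 2 lower (1 without SLO ½ replicate 3 or SLO replicate 2). *PHLDA1* turned to 0.008043 (SLO against VEH) and 0.022781 (SLO ½ against VEH) with library size as the only scaling, and leaving out VEH replicate 3 or SLO ½ replicate 3 turned the latter to 0.014268 or 0.0025689 (range with 1 library left out -0.080592 to 0.014268). Between the doses, *DUSP5* was -0.0036829 without a filter on low counts and -0.001071 with only those groups fitted, and *ETV5* was 0.010688 with library size only and 0.021662, 0.021996 and 0.021662 with the 3 limma fits. With 1 library left out, the dose difference ran from -0.066545 to 0.061052 for *DUSP5*, -0.029645 to 0.081661 for *DUSP6*, -0.036963 to 0.021642 for *ETV5* and -0.072099 to 0.011487 for *PHLDA1*. Apart from the dropped *DUSP9*, the cause of these changes was not tested.

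Library size as the only scaling shifted the median of all genes to 0.09 (SLO) and 0.07 (SLO ½), and the share of higher genes among those called rose from 50.6% to 59.2% and from 51.4% to 60.3%. Replicate numbers showed no strong pairing of the samples: deviations of same-numbered libraries correlated by 0.00277 to 0.0873, with 0 of 9 pairs over 0.1. All 9 were positive, whereas libraries of different numbers correlated by -0.0621 to 0.037. A weak pairing is therefore not excluded. With the replicate number as a block, 6 members were higher and 3 lower with SLO, no member's call changed, and the *DUSP5* difference between doses was -0.00040745. Differences of a few percent in genes with as few as 67 reads per library are below what this depth can show.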
